A study of Mus musculus with 6 samples.

Results

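The tetraspanin family was examined in the adult left ventricle after in utero caffeine exposure. The members were the protein-coding mouse genes whose symbols begin with Tspan, together with Cd9, Cd37, Cd53, Cd63, Cd81, Cd82 and Cd151, and 27 of the 43629 counted genes met that rule. The family was chosen by the differences of 2 of its genes, Tspan8 and Tspan5, between caffeine and vehicle hearts, so the values of these 2, and whether they pass a threshold, are a description and are given with no p. Left ventricles were taken from 6 male CD-1 mice, an outbred stock, aged 1 year. For 3 of them the dam had received intraperitoneal normal saline (vehicle) each day, and for the other 3 it had received 20 mg/kg caffeine in saline, in either case over embryonic days (E) 6.5 to 9.5, although the RNA extraction notes give E10.5 as the last day. The mice carry no engineered allele, and which dam each mouse came from is not given in the sources used here. Hearts may therefore share a litter, and every SD below is the spread between hearts. The standard errors and intervals of fold changes come from a model of that spread that also draws on all tested genes. Counting intervals are named as such.

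Tetraspanins are small proteins that cross the membrane several times and carry a short and a long extracellular loop. They seldom act as receptors by themselves. Instead they gather integrins, immunoglobulin-like proteins, proteases and each other into membrane patches, and they steer the traffic of these partners. One branch, TspanC8, escorts the sheddase ADAM10, which cleaves Notch receptors and cadherins, from the endoplasmic reticulum to the cell surface. Cd9, Cd63 and Cd81 are widely used as markers of extracellular vesicles, and Cd151 links laminin-binding integrins to the membrane patches of muscle, epithelium and endothelium.

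The libraries held between 7613011 and 10483101 counts, and the caffeine libraries were all shallower than the vehicle libraries. Levels are given as CPM, counts per 1000000 library counts after scaling by edgeR's TMM factors, and levels of different genes are compared as RPKM, the same CPM divided by the kilobases of annotated exon. A count of 3, the least taken as detection, was worth 0.284 to 0.42 CPM, depending on the library. Summed cardiomyocyte markers (8 of 8 tested) lay between 53396.7 and 62203.5 CPM in vehicle hearts and between 53047.8 and 57155.6 CPM in caffeine hearts. Several lists of other cell types did not overlap between the treatments. Fibroblast markers (8 of 8 tested, 0 at 0 counts) summed to 874 to 1033.8 CPM in vehicle hearts and 1132 to 1282.6 CPM in caffeine hearts. Conduction system markers (6 of 8 tested, Isl1 at 0) summed to 733.5 to 829.4 CPM and 630.8 to 720.7 CPM, and nerve and Schwann cell markers (4 of 8 tested, Th at 0) to 29.3 to 41.6 CPM and 14.7 to 21.4 CPM, in the same order. Cntn2 is in both of these lists. Atrial markers (3 of 6 tested) summed to 65.9 to 195.9 CPM and 278.7 to 448.3 CPM, nearly all of it Nppa, at 51.3 to 180.2 CPM and 266.3 to 433.1 CPM. The other tested atrial markers, Myl4 (log2 fold change -0.26) and Nr2f2 (-0.09), overlapped. T cell markers (0 of 7 tested) summed to 0.662 to 1.11 CPM and 1.76 to 2.1 CPM, and adipocyte markers (0 of 5 tested) to 0.507 to 1.95 CPM and 0 to 0.42 CPM. The sums of endothelial, mural, macrophage, B cell, neutrophil and platelet, mesothelial and epithelial markers overlapped between the treatments. Of the 8 tested macrophage markers, however, 8 had a log2 fold change above 0 and 0 below, with a median of 0.38. In every caffeine heart 2 of these lay above the vehicle hearts and 0 below, beside 7.11% of all genes above, and 0 were called. In bulk tissue, fewer cells of a type and less RNA per cell cannot be told apart, and the part of these shifts in the results below was not tested.

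The promoters of Tspan5 and Tspan8 are shown because these were the members with the largest differences, and they are unlike each other. RefSeq promoter windows of GRCm38.p6 were found for 26 of the 27 members. Each sequence is the 250 bases before the RefSeq start, read 5′ to 3′ on the plus strand, with CG dinucleotides in capitals. Tspan5 covers chr3:138741958-138742207 and Tspan8 covers chr10:115817034-115817283, the latter inside the longer gene span that GENCODE gives for Tspan8.
Tspan5: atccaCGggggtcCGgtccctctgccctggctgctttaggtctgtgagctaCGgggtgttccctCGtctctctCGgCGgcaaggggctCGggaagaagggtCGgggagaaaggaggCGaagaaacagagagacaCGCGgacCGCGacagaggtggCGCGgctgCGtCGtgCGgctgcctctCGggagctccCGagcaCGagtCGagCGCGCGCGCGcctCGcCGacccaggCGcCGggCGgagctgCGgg
Tspan8: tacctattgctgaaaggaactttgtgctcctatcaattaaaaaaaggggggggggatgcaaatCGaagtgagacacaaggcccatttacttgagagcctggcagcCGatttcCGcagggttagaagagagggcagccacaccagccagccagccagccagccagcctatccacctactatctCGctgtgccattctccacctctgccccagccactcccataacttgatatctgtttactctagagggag
The Tspan5 window held 33 CG dinucleotides and was 70.8% G or C, and 96% of the 32807 promoter windows of that length held fewer. The Tspan8 window held 4, at 52.4% G or C, against a median of 6 over those windows. Motifs were searched on both strands by their letters. GGGCGG, the GC box, occurred 1 time in the Tspan5 window, 15 bases before the start, and is found in 32.7% of all windows. TATAAA (12.4% of windows), CCAAT (33.8%) and GATAAG (6.55%) were found in neither sequence.

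The level of the family in the left ventricle was concentrated in a few genes. Per length, Cd151, Cd81 and Tspan3 held 62.4% of the family's summed RPKM. In all, 12 members averaged above 10 RPKM over the 6 hearts, 9 lay between 1 and 10 RPKM, and 6 at 1 RPKM or less. Cd151, the integrin-bound member, was at 136.8, 128 and 144.8 RPKM in the vehicle hearts and 152, 130.3 and 137.5 RPKM in the caffeine hearts. Cd81, a vesicle tetraspanin and co-receptor of lymphocytes, was at 126.6, 138.1 and 136 RPKM and at 146.1, 134.4 and 134.5 RPKM. These leading members exchanged places from heart to heart, with Cd151 above Cd81 in 4 of 6 hearts.
Tspan3 followed at 51 ± 2.33 RPKM (SD, n = 3) in vehicle hearts and 51 ± 0.846 RPKM (SD, n = 3) in caffeine hearts, below Cd81 in every heart. Tspan13 averaged 28.5 RPKM and Tspan9, found on platelets and many other cells, 24.6 RPKM over the 6 hearts. Tspan12 (24.5 RPKM), a co-receptor for Norrin and Frizzled4 signalling in endothelium, and the X-linked Tspan7 (23.9 RPKM), best known from neurons, stood close to them. None of the neighbours from Tspan13 to Tspan7 was separated beyond the range of its hearts. Of the 26 pairs of neighbours in the order of levels, 5 had ranges that did not overlap. These were Cd81 over Tspan3, Tspan3 over Tspan13, Tspan7 over Tspan31, Cd63 over Tspan14 and Tspan14 over Cd53.

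**Figure D1:**
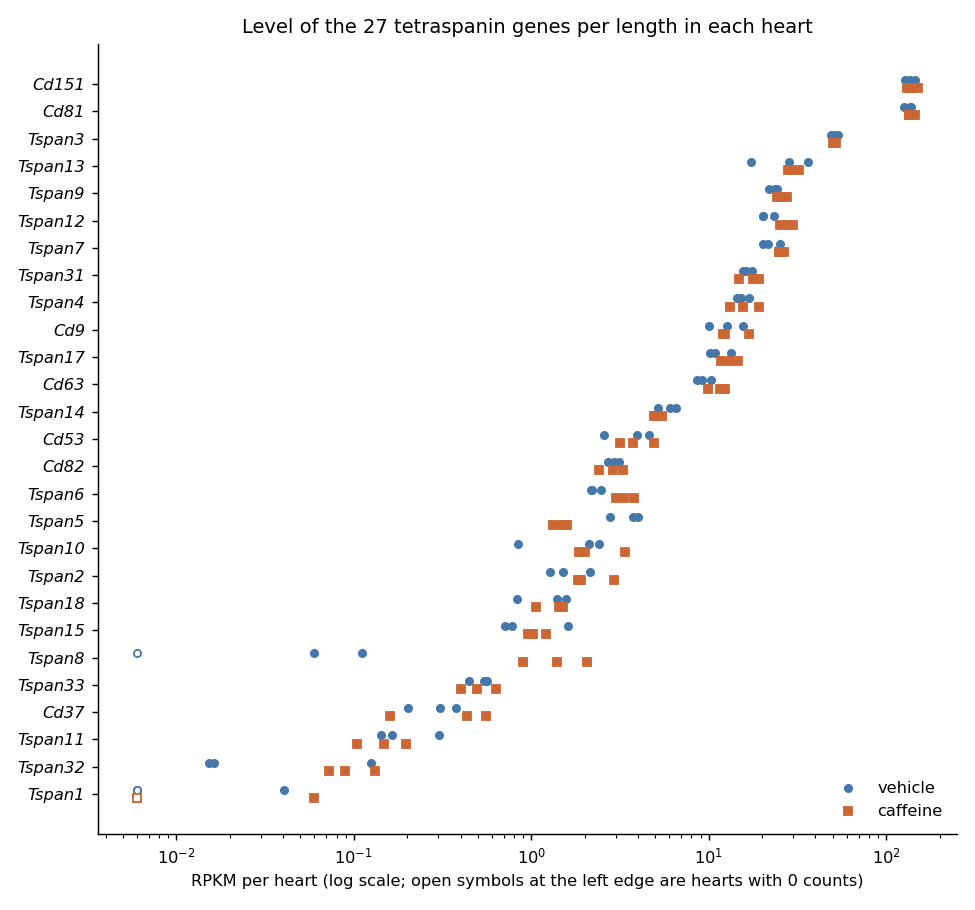
RPKM of each of the 27 tetraspanin genes (rows, ordered by mean) in each heart on a log axis, with circles for the 3 vehicle hearts and squares for the 3 caffeine hearts. Cd151 and Cd81 stand at 138.2 and 136 RPKM on average, most rows overlap between the treatments, and the Tspan8 row is split, from 0 counts in 1 vehicle heart to 30 counts in 1 caffeine heart.

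At the low end, Tspan11 averaged 0.177 RPKM, Tspan32 0.0751 RPKM and Tspan1 0.0168 RPKM. These 3 did not pass the filter on low counts, which kept genes above about 1.09 CPM in at least 3 hearts, and the other 24 members were tested. Cd37 lay just inside the filter, with counts of 11, 14 and 7 in the vehicle hearts and 14, 5 and 13 in the caffeine hearts. Tspan11 lay just outside it, with counts of 9, 8 and 16 and of 4, 7 and 9. Tspan8 passed only through its caffeine hearts, so among the tested members it had to differ.
Tspan1, known from epithelia, had 1 count over the vehicle hearts and 1 over the caffeine hearts. Tspan32, a tetraspanin of blood cells, had 10 and 15 counts, a ratio of 1.88 caffeine to vehicle with a 95% exact counting interval of 0.788 to 4.67. For Tspan11 the ratio was 0.758 (0.412 to 1.36). No difference was detectable at this depth for these members. Counting intervals cover counting error only.

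Members sit in pairs at several places in the genome. On chromosome 7, Cd151 (138 RPKM) and Tspan4 (15.8 RPKM) are on the same strand with 3.77 kb between them, and Tspan32 (0.0751 RPKM) and Cd81 (136 RPKM) lie 33.1 kb apart. On chromosome 6, Tspan11 (0.177 RPKM) and Tspan9 (24.6 RPKM) are 7.42 kb apart on opposite strands, and on chromosome 2, Tspan18 (1.3 RPKM) and Cd82 (2.89 RPKM) are 84.6 kb apart. The levels were far apart in the pairs on chromosomes 6 and 7 and nearer to each other in the pair on chromosome 2.
The RPKM values depend on the length used. When the longest transcript replaced the merged exons, the ranks of 13 members moved and Cd81 (243.6 RPKM) stood above Cd151 (203.2 RPKM). The levels of Tspan3 (102.4 RPKM), Cd9 (22.1 RPKM), Cd82 (4.77 RPKM), Tspan18 (2.83 RPKM) and Tspan15 (2.37 RPKM) also moved by more than 1.5 times.

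In the comparison of caffeine with vehicle hearts 1 of the 24 tested members, Tspan8, was higher and 1, Tspan5, was lower at a Benjamini-Hochberg adjusted p below 0.05 and a fold change above 1.5 in edgeR's quasi-likelihood test. Over all 13092 genes tested the share called was 0.107%, with 11 genes higher (0.084%) and 3 lower (0.0229%). The family was chosen for this very contrast, so nothing is read from its count. In 4 members (16.7% of those tested) vehicle and caffeine hearts had separate ranges, against 14.2% of all genes, 7.11% with caffeine above and 7.12% below. These were Tspan8, Tspan12 and Tspan6, above in every caffeine heart, and Tspan5, below in every one. The log2 fold change was above 0 in 19 of the tested members and below 0 in 5, with a median of 0.09 beside 0.001 over all genes. Scaling by library size only, which shifts all genes alike, gave 13 above and 11 below, with a median of 0.01 beside -0.084 over all genes. In 14 of them the log2 fold change was smaller than 0.2 in size. Each call was lost in some of the fits that left 1 heart out, which also had fewer samples. Tspan8 was no longer called without vehicle replicate 2, vehicle replicate 3 or caffeine replicate 3, and Tspan5 without vehicle replicate 2, caffeine replicate 1 or caffeine replicate 3.

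**Figure D2:**
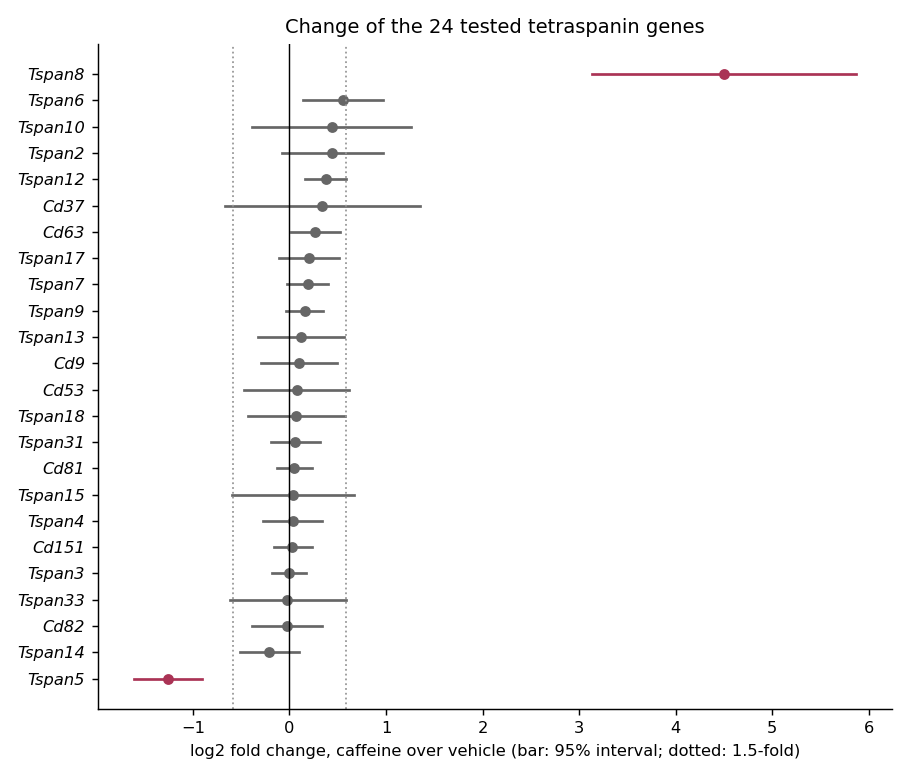
The log2 fold change, caffeine over vehicle, of the 24 tested members (points) with the 95% interval of the fit (bars); dotted lines mark 1.5-fold and coloured rows are the 2 genes past the thresholds. Tspan8 stands at 4.50 and Tspan5 at -1.26, and the other 22 lie between -0.21 and 0.56.

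Tspan8 (ENSMUSG00000034127, GRCm38 chr10:115816832-115849893) is best known from epithelia of the gut and from tumours, where its protein is carried on vesicles. It had 0, 2 and 1 counts in the vehicle hearts and 11, 21 and 30 counts in the caffeine hearts. In CPM this was 0, 0.189 and 0.101 against 1.54, 2.37 and 3.52. Every vehicle heart was thus below the level of 3 counts and every caffeine heart was above it, although the caffeine libraries were the shallower ones. The ratio of the summed counts, scaled by depth, was 25.8 caffeine to vehicle, with a 95% exact counting interval of 8.44 to 128.7. That interval describes counting error in a gene chosen for its difference, and supports none.
The fitted log2 fold change of 4.50 (standard error 0.62) depends on the prior count added to low values, and ranged from 3.97 to 5.30 when each heart was left out in turn. Even in the caffeine hearts the level was low, 1.45 ± 0.584 RPKM (SD, n = 3), which ranked 20 among the 27 members, against 25 in the vehicle hearts. Exons of Tspan8 overlap those of an antisense gene, 4930422I22Rik, by 4 bases.
Markers of epithelium were near 0 in the same libraries. None of the 8 was tested, Cdh1, Cldn4 and Elf3 had 0 counts in all 6 hearts, and the list summed to 0.391 to 0.757 CPM in vehicle hearts and 0.564 to 1.54 CPM in caffeine hearts. Mesothelial and epicardial markers (3 of 8 tested) summed to 10.2 to 19.4 CPM and 12.2 to 21 CPM. Both ranges overlapped between the treatments. The epithelial list is too near 0 to show much of a change, and the cell source of the Tspan8 counts was not tested.

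Tspan5 (ENSMUSG00000028152, GRCm38 chr3:138742195-138907905) belongs to TspanC8. It had 211, 294 and 292 counts in the vehicle hearts and 84, 98 and 84 counts in the caffeine hearts. These were 20.6, 27.8 and 29.6 CPM against 11.8, 11.1 and 9.85 CPM. The lowest vehicle heart was well above the highest caffeine heart. The mean was 26 ± 4.75 CPM (SD, n = 3) with vehicle and 10.9 ± 0.966 CPM (SD, n = 3) with caffeine. The log2 fold change was -1.26 (standard error 0.16), and it lay between -1.40 and -1.16 with each heart left out. No exon of another annotated gene overlaps those of Tspan5.

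**Figure D3:**
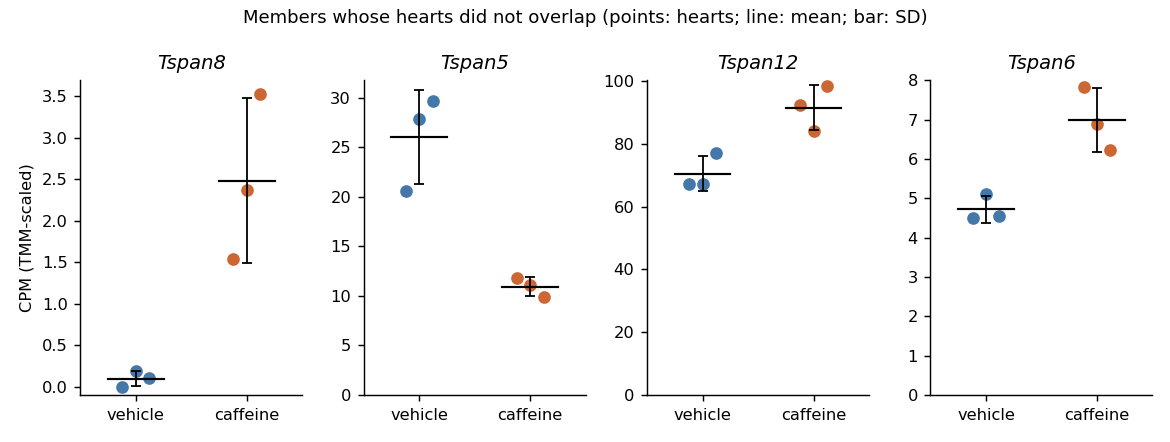
CPM in each heart (points) for the 4 tested members whose treatments did not overlap, with the mean (line) and SD (bar) of 3 hearts; each panel has its own axis. Mean CPM with vehicle and caffeine was 26 and 10.9 for Tspan5, 0.0969 and 2.48 for Tspan8, 70.5 and 91.5 for Tspan12, and 4.72 and 6.98 for Tspan6.

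The other TspanC8 members share with Tspan5 a long loop rich in cysteines and the ability to bind ADAM10. All 6 were tested, and Tspan5 was the member called. Tspan17, the most abundant of the group per length, was at 22.1, 16.9 and 18.1 CPM in the vehicle hearts. In the caffeine hearts it was at 21.8, 24.2 and 19.5 CPM, and the treatments overlapped (log2 fold change 0.20, standard error 0.14, edgeR adjusted p = 0.748). Tspan14 was at 16.1, 13.7 and 17.4 CPM and at 13.3, 13.1 and 14.5 CPM, with a log2 fold change of -0.21 (edgeR adjusted p = 0.729).
The 3 scarcer members were uneven among hearts. Tspan10 ranged from 1.52 to 4.35 CPM in vehicle hearts and from 3.36 to 6.1 CPM in caffeine hearts, and Tspan15 from 5.86 to 13.3 CPM and from 7.86 to 9.94 CPM. Tspan33, known for a role in red cell development, ranged from 2.33 to 2.93 CPM and from 2.1 to 3.27 CPM. Their log2 fold changes were 0.44, 0.04 and -0.02, and the 95% intervals reached from -0.39 to 1.26 for Tspan10, from -0.59 to 0.67 for Tspan15 and from -0.62 to 0.59 for Tspan33. Changes of up to about 1.5-fold in either direction remain within the last 2 of these intervals.

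Per length, Tspan5 was a minor part of the group in every heart. It made up 10.9%, 16.4% and 16.4% of the summed TspanC8 RPKM in the vehicle hearts and 6.84%, 5.74% and 6.05% in the caffeine hearts. Tspan17 made up 52.1%, 44.6% and 44.8% with vehicle and 56.6%, 55.9% and 53.3% with caffeine. Neither share overlapped between the treatments, but shares sum to a whole, so one that drops raises the rest. The summed TspanC8 level overlapped per length, at 24.3 ± 1.35 RPKM (SD, n = 3) with vehicle and 23.8 ± 2.1 RPKM (SD, n = 3) with caffeine. Without division by length it did not overlap, at 71.3 to 82.3 CPM with vehicle and 57.9 to 66.1 CPM with caffeine. That sum includes Tspan5, whose difference chose the family. Without Tspan5, the sum of the other members overlapped, as did each of them.

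**Figure D4:**
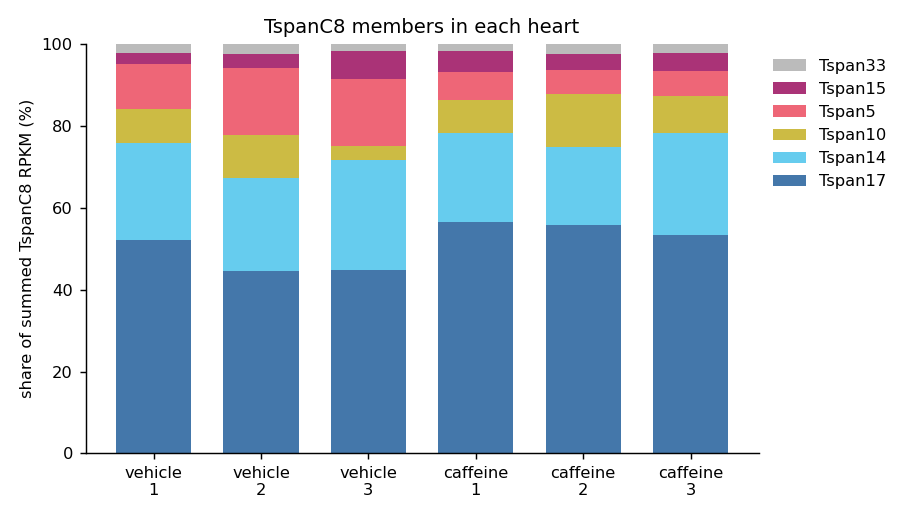
Share of the summed TspanC8 RPKM held by each of the 6 members in each heart (bars, percent, starting at 0). Tspan5 takes 10.9% to 16.4% in the vehicle hearts and 5.74% to 6.84% in the caffeine hearts, and Tspan17 is the largest part throughout.

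Tspan12 and Tspan6 showed smaller differences that did not pass the threshold. Tspan12 (ENSMUSG00000029669, GRCm38 chr6:21771395-21852515) was at 67.1, 67.3 and 77 CPM in the vehicle hearts and 92.3, 84 and 98.4 CPM in the caffeine hearts. Its log2 fold change was 0.38 (standard error 0.10, edgeR adjusted p = 0.244), with a 95% interval from 0.16 to 0.59. The second endothelial member, Tspan18, which acts on calcium entry through Orai1, ranged from 6.84 to 12.9 CPM and from 8.68 to 12.3 CPM.
The receptor that Tspan12 assists, Fzd4, was at 41.1, 38.3 and 40 CPM with vehicle and 29.3, 36.5 and 34.4 CPM with caffeine. All caffeine hearts lay below the vehicle hearts here, the reverse of Tspan12, and the log2 fold change of -0.25 was not called (edgeR adjusted p = 0.548). Its co-receptor Lrp5 also lay below in every caffeine heart, with a log2 fold change of -0.11 (edgeR adjusted p = 0.772). The ligand gene Ndp had counts in 1 caffeine heart only, at 0.235 CPM.
Tspan6 (ENSMUSG00000067377, GRCm38 chrX:133891068-133898429) was at 4.49, 5.11 and 4.56 CPM with vehicle and 7.84, 6.89 and 6.22 CPM with caffeine. Its log2 fold change was 0.56 (standard error 0.19, edgeR adjusted p = 0.382). The X-linked Tspan7 overlapped, with a log2 fold change of 0.19 (95% interval -0.02 to 0.40).

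Each of the vesicle tetraspanins overlapped between the treatments and none was called. Their log2 fold changes were all above 0, and their summed level was narrowly separate, at 434.4 to 455.4 CPM with vehicle and 457 to 488.7 CPM with caffeine. That sum is mostly Cd81, and its separation depends on the TMM scaling. Under scaling by library size only, the log2 fold change was -0.04 for Cd81, 0.03 for Cd9 and 0.19 for Cd63. That of Cd9 also fell below 0 without vehicle replicate 3 (-0.04) or caffeine replicate 2 (-0.07). Cd63, a protein of late endosomes and lysosomes, was at 37.9, 31.7 and 33.8 CPM with vehicle and 42.8, 36.7 and 45.1 CPM with caffeine. The log2 fold change of 0.27 (standard error 0.11) did not pass after adjustment (edgeR adjusted p = 0.548). Cd9, which acts in cell fusion and adhesion, was at 31.8, 25.9 and 20.7 CPM and at 25.2, 34.4 and 24.5 CPM, with a log2 fold change of 0.10.
Cd81 was the most tightly measured of the 3. Its log2 fold change was 0.05, and the 95% interval from -0.13 to 0.23 leaves room for at most a 1.17-fold rise or a fall to 0.913 of the vehicle level. For Cd151 the interval was -0.16 to 0.23 and for Tspan3 -0.18 to 0.17. None of these intervals reached 1.5-fold.

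The leukocyte tetraspanins were scarce. Cd53, found on most white blood cells, was at 8.01, 6.91 and 4.46 CPM with vehicle and 8.54, 5.53 and 6.57 CPM with caffeine. Cd37, strongest in B cells, was at 1.07, 1.32 and 0.709 CPM and at 1.96, 0.564 and 1.52 CPM. Both overlapped, with log2 fold changes of 0.08 and 0.34 and 95% intervals of -0.47 to 0.62 and -0.67 to 1.35. Macrophage markers (8 of 8 tested, 0 at 0 counts) summed to 232.5 to 353.7 CPM with vehicle and 271.9 to 537.7 CPM with caffeine in the same hearts, and B cell markers (1 of 6 tested, Pax5 at 0) to 3.32 to 5.57 CPM and 4.4 to 8.44 CPM.

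The remaining tested members gave no call. Among the adhesion members Tspan4, which takes part in forming migrasomes, had a log2 fold change of 0.04, Tspan9 of 0.16 and Cd82, a suppressor of metastasis, of -0.03. Tspan2, known from oligodendrocytes, had one of 0.44 with a 95% interval from -0.08 to 0.97, and its hearts ranged from 6.06 to 10.2 CPM with vehicle and 8.68 to 14 CPM with caffeine. In the vehicle hearts Tspan13 varied most among the members above 10 RPKM, at 43, 70.1 and 89.9 CPM. It varied less in the caffeine hearts, at 79.5, 72 and 69.2 CPM.
The spread between hearts was otherwise ordinary. The median coefficient of variation over the tested members was 11.9% in either treatment, against 11.1% (vehicle) and 11.5% (caffeine) over all tested genes. Tspan31 had a log2 fold change of 0.06, but 29.2% of its exon bases are shared with Cdk4 on the opposite strand, and 13.4% of those of Tspan4 with Chid1. The library kit does not keep strand, so reads from these overlaps cannot be assigned to either gene and the values of Tspan31 and Tspan4 are uncertain. The other exon overlaps cover at most 10.7% of a member, which is that of Cd9 with Gm26728, a gene with 1 count in all 6 hearts together.

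The genes whose proteins tetraspanins bind or sort with were listed to see whether they differed too. They comprised 63 genes in 3 lists, of which 56 were tested and 0 were called, whether by the quasi-likelihood or the exact test of edgeR, by DESeq2, by limma-voom or without a filter. Over all genes these called 0.107%, 0.718%, 0.512%, 0.107% and 1.07%, in that order, so few or no calls among 56 genes would match the background. At an unadjusted p below 0.05 there were 2, Igsf3 and Fzd4, against 8.82% of all genes. The log2 fold change was above 0 in 28 and below 0 in 28.
Adam10, the sheddase that TspanC8 proteins escort, was at 38.6, 47.9 and 51.8 CPM with vehicle and 50.1, 49.2 and 53.7 CPM with caffeine. Its log2 fold change was 0.15 (standard error 0.12, edgeR adjusted p = 0.78), and that of the related sheddase Adam17 was 0.08. The level of Adam10 overlapped between the treatments.
Of the 24 tested genes of the Notch pathway and other substrates, the hearts did not overlap in 2, against 14.2% of all genes. These were Dll1, a Notch ligand (log2 fold change 0.29), and Hey2, a Notch target of the ventricle (-0.37). Notch1 (-0.09), Notch2 (-0.06), Notch3 (-0.20) and Notch4 (-0.03) overlapped, as did the substrate Cdh2, the N-cadherin of cardiomyocyte junctions (-0.14).
Of the 14 tested direct partners, 1 lay above and 4 below in every caffeine heart, beside 7.11% of all genes above and 7.12% below. Over the partner, Notch and vesicle lists together it was 2 above and 5 below among 56 genes. The lists were chosen with earlier results known, so nothing is read from these counts. Igsf8 was higher in every caffeine heart (log2 fold change 0.23), while its relative Ptgfrn overlapped (-0.07). Igsf3 (-0.30) and the integrin chain Itga4 (-0.78) lay below in every caffeine heart, with edgeR adjusted p = 0.563 and 0.579. The others below were Fzd4 and Lrp5, given with Tspan12. The integrins that Cd151 binds, Itga3 (0.20), Itga6 (0.30), Itga7 (-0.14) and Itgb1 (-0.04), overlapped. In the vesicle machinery 0 of 18 genes had hearts that did not overlap, beside the same 14.2% of all genes, with log2 fold changes between -0.36 and 0.12.

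**Figure D5:**
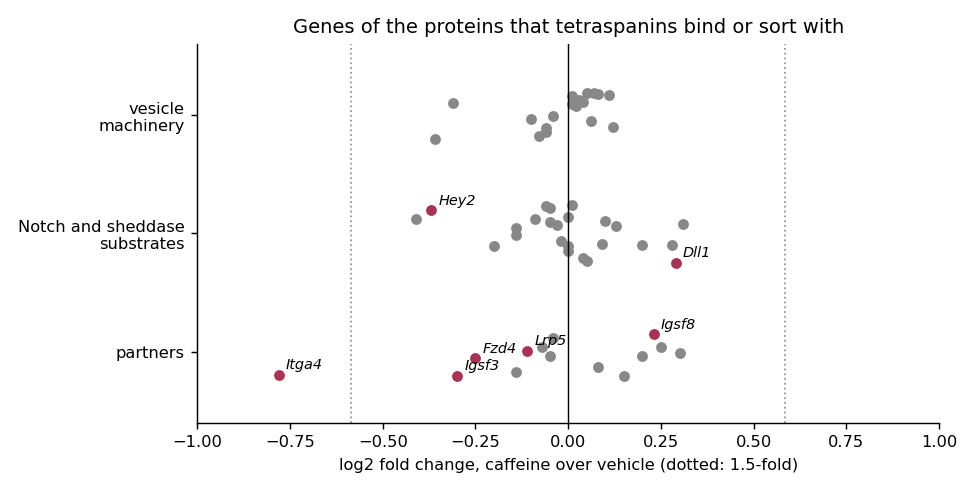
The log2 fold change, caffeine over vehicle, of the 56 tested genes of the 3 lists (points, spread vertically for sight only), with coloured and named points where the treatments did not overlap; dotted lines mark 1.5-fold. Only Itga4, at -0.78, lies outside the 1.5-fold lines, and none was called.

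Of the listed tetraspanin genes that the symbol rule leaves out, Rom1, of the photoreceptor disc rim, was tested. Rom1 ranged from 44.4 to 54.3 CPM with vehicle and from 48.7 to 62.6 CPM with caffeine (log2 fold change 0.21, edgeR adjusted p = 0.656). Its partner Prph2 had 0 counts in all hearts. The uroplakins Upk1a and Upk1b were below the filter.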

How the data were processed

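Poly(A) RNA of the 6 left ventricles was sequenced by the authors as single-end reads on a NextSeq500 in 1 run, cleaned with FastQC, mapped to mm10 (GRCm38) with Tophat2 and counted per gene with HTSeq on Ensembl release 79. Tool versions and the strand setting are not given in the sources used here. The deposited values are raw counts of 43629 genes per sample, without normalization. From these, genes were kept by filterByExpr of edgeR 4.0.16 (minimum count 10, minimum total 15; 13092 genes), TMM factors were applied, and edgeR's quasi-likelihood model (glmQLFit, then glmQLFTest) had treatment as its single term. A call required a Benjamini-Hochberg adjusted p below 0.05 and a fold change above 1.5. Intervals are 95% t intervals on the moderated degrees of freedom. Other tests used DESeq2 1.42.0 and limma 3.58.1 in R 4.3.3, and tables and plots used Python 3.11.15, pandas 2.3.3 and Matplotlib 3.10.9. Before use, the quasi-likelihood, robust, exact, DESeq2 and limma-voom tests were run on simulated counts with the main filter and scaling. The other settings were not simulated. The changed genes of the simulation were more abundant than Tspan8, so genes as scarce as it were not covered. Symbols, positions and exon lengths came from GENCODE M21, matched by Ensembl identifier.

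The family, the lists of partners and markers and the rule for named genes were chosen with earlier results of these data known. Values are given for members past the thresholds or without overlap between treatments, the 5 highest members, 3 role groups and members at the filter. The role groups are TspanC8, vesicle and leukocyte tetraspanins. Listed genes were Adam10, Adam17, Igsf8, Ptgfrn and those without overlap. The remaining members, the Notch receptors, Cdh2, the integrins, Ndp and Rom1 fall outside that rule and were named after their values were known. Replicates of one treatment differed by more than sampling noise (chi-square per degree of freedom 5.66 to 15.08), so each library was counted as 1 sample.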

Additional observations from a re-analysis of the deposited data

How the results depend on the processing

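The calls of Tspan8 and Tspan5, whose differences chose the family, are no independent support under any setting. They were made without a filter, under scaling by RLE size factors or by library size only, and with edgeR's exact and robust tests, DESeq2, limma-voom, the replicate block and no fold threshold. With at least 10 counts required in every sample, Tspan8 was removed and 0 members were higher. Leaving out each replicate gave 0 to 1 members higher and 0 to 1 lower, with fewer samples in each fit. Over all genes, in place of 11 higher and 3 lower, the counts were 145 and 95 with no filter, 61 and 33 with edgeR's exact test and 39 and 28 with DESeq2. Library size only gave 15 lower, and leaving out each replicate gave 4 to 17 higher and 0 to 13 lower; the cause was not tested. A fit with the replicate block gave 29 and 11. Deviations of same-numbered hearts correlated at -0.038 to 0.045, and not every heart correlated best with its own number. These values gave no sign that the numbers pair the hearts, but they cannot exclude a shared litter or batch. The block changed no call among the members. Partner and vesicle genes stayed at 0 calls under every alternative run. Of 358 member values under alternatives 352 kept their side of the thresholds, 6 fell short and 0 turned past them in the other direction, while 13 members, none past 0.34 on the log2 scale, changed sign under some alternative. The median member level was 3.83 RPKM with merged exons and 4.77 RPKM with the longest transcript, and Cd81 moved from 136 to 243.6 RPKM. Depth limits Tspan1, Tspan11 and Tspan32, which were not tested.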
